A study of Homo sapiens with 6 samples.

Results

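The metallothionein genes MT1A, MT1E, MT1F, MT1G, MT1H, MT1M, MT1X and MT2A, together with the gene of their transcription factor, MTF1, and the zinc exporter gene SLC30A1, were followed in HepG2 cells treated with GDF11. These 10 genes were taken by symbol from the 60240 Ensembl genes of the deposited table, and all 10 had a row. HepG2 is a human hepatocellular carcinoma line, and GDF11 (growth differentiation factor 11) is a secreted ligand related to TGF-beta. One group of 3 cultures received 100 ng/ml recombinant GDF11 for 24 h, and the control group of 3 cultures is labelled only as control. All cultures grew in high-glucose DMEM with fetal bovine serum, the labels name no genetic change, and they call the cultures biological replicates. The values are variance-stabilised log2 values with a lowest value of 5.52, which a gene without reads has. Where 3 values of a group are listed, they are in the order of replicates 1, 2 and 3.

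Metallothioneins are small, cysteine-rich proteins that bind zinc and copper and also cadmium, and the liver is among the tissues in which they are most abundant. MTF1 senses free zinc through its zinc fingers, enters the nucleus and binds metal response elements in the promoters of metallothionein genes and of SLC30A1, whose product exports zinc from the cell. Metallothionein genes are also known to respond to glucocorticoids, inflammatory cytokines and oxidants.

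Depth, estimated from the step that 1 read makes in the low values, was 47924125 to 53374595 reads. Hepatocyte genes marked the cells as labelled: all 10 of the hepatocyte and HepG2 markers were expressed, 5 of them were lower with GDF11 and 5 were not called. Among all tested genes 10.8% were called lower and 11.7% higher, and these shares also stand beside the calls in the marker lists that follow. Marker lists of other cell types, of 8 genes each, held expressed and moving members. Of the leukocyte and macrophage genes PTPRC, MARCO and CD3E stood at the lowest value in all 6 libraries, CSF1R was called higher and LYZ lower. CSF1R was scarce, with 3.37, 5.59 and 0 normalised reads in the controls and 11.0, 23.3 and 17.8 with GDF11. The summed reads of this list were 68865 to 80408 in the controls and 32547 to 34225 with GDF11, nearly all from LYZ. Of the endothelial genes TEK, CLEC4G and ERG stood at the lowest value and VWF was called lower (sums of 53.8 to 97.3 and 13.2 to 33.4). Of the bile duct genes CFTR stood at the lowest value, KRT7 and KRT19 were called higher and SOX9 lower. The sums of the bile duct list, 111006 to 156472 and 171168 to 176103, came mostly from SPP1, which was not called. Of the fibroblast and stellate cell genes COL1A1 and PDGFRB were called higher and ACTA2 lower (sums of 4203 to 6057 and 4407 to 5360). The part of these genes' changes in the results below was not tested. The RNA integrity number (RIN) was 9.6 to 9.9 in the controls and 9.4 to 9.6 with GDF11, so that it moved with the treatment. Its part was not tested beyond a fit with RIN as a covariate, called RIN-adjusted here. Control replicate 3 stands apart from the other controls in several of the genes below, among them MT1G, MT1F and MTF1. Where alternative settings were examined, values without it stand beside the calls that it changes. Alternatives were not examined for marker genes, chromosomal neighbours, genes like single isoforms and genes named after their values were seen. Whether the calls of those genes depend on this library or on RIN was not tested.

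The family did not move as 1 unit. MT2A rose with GDF11 to 3.15 times the control, on back-transformed normalised reads, while MT1G and MT1F fell to levels that the controls exceeded 4.35 and 3.62 times. MT1E and MT1X, which are also well expressed, were not called in either direction. Of the 10 genes, 8 passed the filter on low values (the mean had to exceed the table's minimum by 0.5), and of these 2 were higher (MT2A and SLC30A1), 2 were lower (MT1G and MT1F) and 4 were not called (limma, threshold 0.05 on p-values adjusted by Benjamini-Hochberg over 18723 tested genes). Over all tested genes 11.7% were called higher, 10.8% lower and 22.4% in either direction. The 4 called genes were also those whose groups did not overlap, which held for 40.5% of all tested genes. The median difference of the 8 tested genes was 0.025, beside 0.0056 for all tested genes. Without control replicate 3 the counts were 3 higher and 2 lower, and RIN-adjusted 1 higher and 0 lower. In bulk RNA a change in the number of cells that hold a transcript and a change in the amount per cell cannot be told apart.

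**Figure D1:**
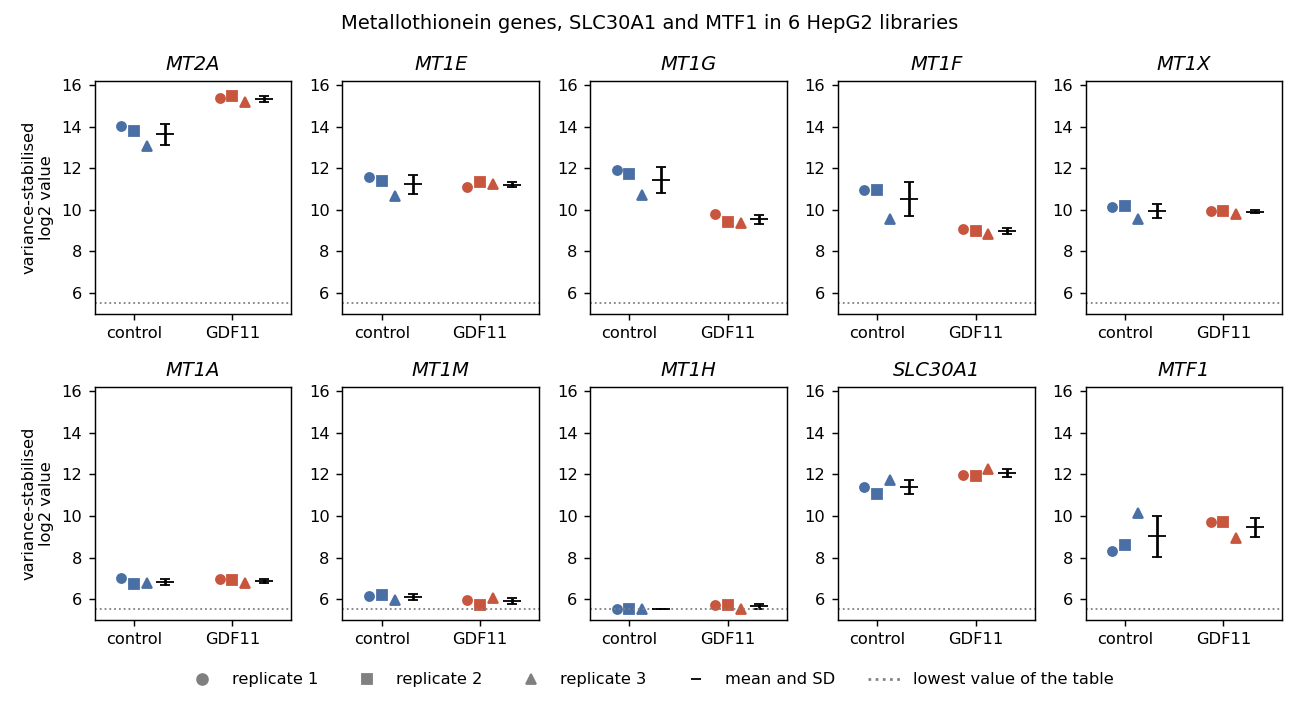
Variance-stabilised log2 values (vertical axis) of the 10 genes in each of the 3 control and 3 GDF11 libraries (horizontal axis), with the replicate as the symbol and the group mean and SD beside it; the dotted line is the lowest value of the table, 5.52. MT2A lies higher in the GDF11 libraries, MT1G and MT1F lie lower, and control replicate 3 lies below the other controls for MT2A, MT1E, MT1G, MT1F and MT1X.

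MT2A encodes the main metallothionein isoform of most human tissues. It lies on chromosome 16, 56608584 to 56609497 (RefSeq annotation on GRCh38.p14; ENSG00000125148.7 in the table). Its values were 14.03, 13.81 and 13.08 in the controls and 15.37, 15.46 and 15.19 with GDF11. Every GDF11 library was above every control, and control replicate 3 was the lowest of all. The log2 difference was 1.70 ± 0.24 (SE, 3 against 3; limma adjusted p = 0.00157). In normalised reads the gene went from 13175 ± 4160 to 41530 ± 4020 (SD, n = 3 each). MT2A was called higher under each of the 20 alternative settings, with differences from 1.42, without control replicate 3, to 2.29, RIN-adjusted.

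Promoter sequence was at hand for MT2A, MT1X, MT1H, SLC30A1 and MTF1 among the 10 genes. MT1A, MT1E, MT1F, MT1G and MT1M had no entry. The 250 bases before the annotated start (RefSeq, GRCh38.p14) were searched on both strands for the core of the metal response element, as TGCACNC or TGCGCNC, since this is the motif that MTF1 is known to bind. The 3 metallothionein promoters shown are all those at hand, and their genes gave different readouts: a rise, no call and almost no reads. All 3 run on the plus strand, from chr16:56608334-56608583 for MT2A, chr16:56682220-56682469 for MT1X and chr16:56669564-56669813 for MT1H, and capitals mark the matches.
MT2A: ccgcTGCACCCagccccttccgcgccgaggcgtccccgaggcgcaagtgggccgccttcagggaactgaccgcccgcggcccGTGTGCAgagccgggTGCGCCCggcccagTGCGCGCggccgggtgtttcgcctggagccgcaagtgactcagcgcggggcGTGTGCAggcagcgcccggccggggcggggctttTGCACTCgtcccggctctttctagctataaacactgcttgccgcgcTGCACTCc
MT1X: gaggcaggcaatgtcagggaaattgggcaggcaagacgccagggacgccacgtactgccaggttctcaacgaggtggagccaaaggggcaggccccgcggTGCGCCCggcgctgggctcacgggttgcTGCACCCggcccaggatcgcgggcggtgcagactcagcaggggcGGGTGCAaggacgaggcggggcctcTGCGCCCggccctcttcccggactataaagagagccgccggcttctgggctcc
MT1H: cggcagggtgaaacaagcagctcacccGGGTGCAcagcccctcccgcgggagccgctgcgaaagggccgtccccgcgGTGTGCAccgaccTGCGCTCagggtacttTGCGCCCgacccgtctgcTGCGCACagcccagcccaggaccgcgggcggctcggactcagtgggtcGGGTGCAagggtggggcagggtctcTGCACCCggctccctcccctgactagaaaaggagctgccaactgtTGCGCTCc

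MT2A had 7 matches, MT1X had 4 and MT1H had 8. Among 35116 promoter windows of the same length, 24.8% held at least 1 match, 0.37% at least 4 and 0.12% at least 5. MT1H, with the most matches, stood at or next to the lowest value and was not tested, so its response to GDF11 is not known. Promoters of MT1G, MT1F and MT1E were not at hand, and a link between matches and readout was not tested. A search for the AP-1 motif TGANTCA found 1 match in MT2A, on bases 104 to 98 before the start and outside the metal response element matches, and 0 in MT1X and MT1H; 6.57% of all windows held one. Such matches are letters in a window and do not show that a factor was bound.

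MT1G and MT1F encode isoforms of the same structure as MT2A and lie next to each other, at 56666730 to 56668065 and 56657959 to 56659303 of chromosome 16. MT1G (ENSG00000125144.14) had values of 11.89, 11.72 and 10.71 in the controls and 9.79, 9.42 and 9.39 with GDF11. The groups did not overlap, which holds for 19.6% of all tested genes in this direction. MT1G fell by 1.91 ± 0.29 on the log2 scale (SE, 3 against 3; limma adjusted p = 0.00220), from 2864 ± 1128 to 659 ± 120 normalised reads (SD, n = 3 each). Control replicate 3 lay nearly midway between the other controls and the GDF11 libraries, at 0.48 on a scale from 0, the mean of the other controls, to 1, the GDF11 mean. Without control replicate 3 the MT1G difference was -2.27 (adjusted p = 3.38e-05).

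MT1F (ENSG00000198417.7) had values of 10.97, 10.98 and 9.56 in the controls and 9.10, 8.98 and 8.83 with GDF11. Control replicate 3 was closer to the GDF11 libraries than to its own group, at 0.70 on the same scale, yet the groups did not overlap. MT1F fell by 1.53 ± 0.35 (SE, 3 against 3; limma adjusted p = 0.0139), from 1503 ± 725 to 415.0 ± 45.1 normalised reads (SD, n = 3 each). Without control replicate 3 it stood at -2.01 (adjusted p = 2.91e-05), and its call ended without control replicate 1 (-1.30, adjusted p = 0.0660) and without control replicate 2 (-1.30, adjusted p = 0.0549). RIN-adjusted, neither gene was called, at -0.49 for MT1F (adjusted p = 0.417) and -1.05 for MT1G (adjusted p = 0.0511).

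MT1E and MT1X were expressed in every library and were not called. MT1E (ENSG00000169715.15; chromosome 16, 56625781 to 56627112) had values of 11.57, 11.41 and 10.69 in the controls and 11.11, 11.32 and 11.22 with GDF11. Its GDF11 values lay inside the range of the controls, with a log2 difference of -0.0048 ± 0.23 (SE, limma adjusted p = 0.990). MT1X (ENSG00000187193.9; chromosome 16, 56682470 to 56684196) had values of 10.15, 10.16 and 9.55 in the controls and 9.96, 9.94 and 9.81 with GDF11. The difference was -0.045 ± 0.19 (SE, limma adjusted p = 0.886), and the GDF11 libraries again lay between control replicate 3 and the other controls. Signs of these near-zero differences changed with the setting: RIN-adjusted they were 0.45 for MT1E and 0.42 for MT1X, and with quantile normalization MT1E stood at 0.068 (not called in these settings). Without control replicate 3 they were -0.27 for MT1E (adjusted p = 0.113) and -0.25 for MT1X (adjusted p = 0.147).

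The remaining isoforms were scarce. MT1A (ENSG00000205362.11) had 51.8, 33.8 and 35.6 normalised reads in the controls and 49.0, 45.7 and 36.8 with GDF11, so the groups overlapped (log2 difference 0.055 ± 0.12, limma adjusted p = 0.776). MT1M, with 8.82, 10.9 and 3.85 reads in the controls and 3.84, 0.973 and 5.85 with GDF11, had a mean just under the filter and was not tested. MT1H had 0 reads in the 3 controls and 0.961, 0.973 and 0 with GDF11, which is about 1 read in each of 2 libraries and was likewise not tested. Nor were MT3 and MT4, the isoforms known from brain and stratified epithelia, seen: both stood at the lowest value in all 6 libraries. Of the 9 further metallothionein genes and pseudogenes, only MT1B passed the filter, and it was not called (6.22 ± 0.25 against 6.05 ± 0.18, SD, n = 3 each; adjusted p = 0.447).

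Metallothionein transcripts resemble one another, which bears on how reads were divided among them. Over the canonical transcripts of GENCODE v44, 0% of the 75-base windows of MT2A, MT1F, MT1A and MT1M occurred in any transcript of another gene, and the read length was also 75 bases. Other transcripts of these genes were not examined in this way, and one of MT1M shares windows with the canonical transcript of MT1E. Such windows made up 1.64% for MT1E, 6.55% for MT1G, 10.8% for MT1H and 36.1% for MT1X. MT1X shared windows with MT1G, the pseudogene MT1XP1 and a further gene without a symbol. The level of MT1X, and to a lesser degree that of MT1G, is therefore uncertain. Only exact matches were counted.

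Summed over the 8 metallothionein genes, which does not depend on how reads were split among these genes, normalised reads were 26377, 23198 and 13088 in the controls and 46694, 49493 and 41262 with GDF11. The GDF11 mean was 2.19 times the control mean (1.85 times without control replicate 3). Without MT2A the sum was lower, at 7713 ± 2800 reads in the controls and 4286 ± 167 with GDF11 (SD, n = 3 each), and here control replicate 3, at 4509, lay next to the GDF11 libraries. The controls held 1.80 times the GDF11 level in this sum, and 2.17 times without control replicate 3. The rise of the full sum is that of MT2A, which held most of its reads in every library.

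The share of MT2A in the pool varied less within a group than the size of the pool. MT2A held 63.3%, 61.5% and 65.6% of the metallothionein reads in the controls and 90.7%, 91.1% and 90.1% with GDF11. MT1G held 14.1%, 14.2% and 12.1% in the controls and 1.71%, 1.21% and 1.41% with GDF11. The share of MT1F was 6.89% ± 1.64 against 0.907% ± 0.0715, and that of MT1E 11.5% ± 0.383 against 5.03% ± 0.506 (SD, n = 3 each). In the shares of MT2A, MT1G and MT1E control replicate 3 lay near the other controls. In that of MT1F it was lower, at 5.09% beside 7.28% and 8.29% in control replicates 1 and 2. The GDF11 libraries held 0.842% to 0.983% for MT1F. Within a library, the log2 ratio of MT2A to MT1G reads was 2.24 ± 0.17 in the controls and 5.99 ± 0.25 with GDF11 (SD, n = 3 each). The ratio of MT2A to MT1E reads was 2.47 ± 0.030 in the controls and 4.18 ± 0.15 with GDF11 (SD, n = 3 each). For MT2A against each of MT1G, MT1F, MT1E, MT1X and MT1A the groups did not overlap. The two-sided exact permutation p was 0.1 for each of the 5 ratios and 0.1 after adjustment, the smallest that 3 against 3 can give. MT2A alone already separated the groups, and MT1G and MT1F did so in the other direction. The ratios largely restate these differences and give no separate support.

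**Figure D2:**
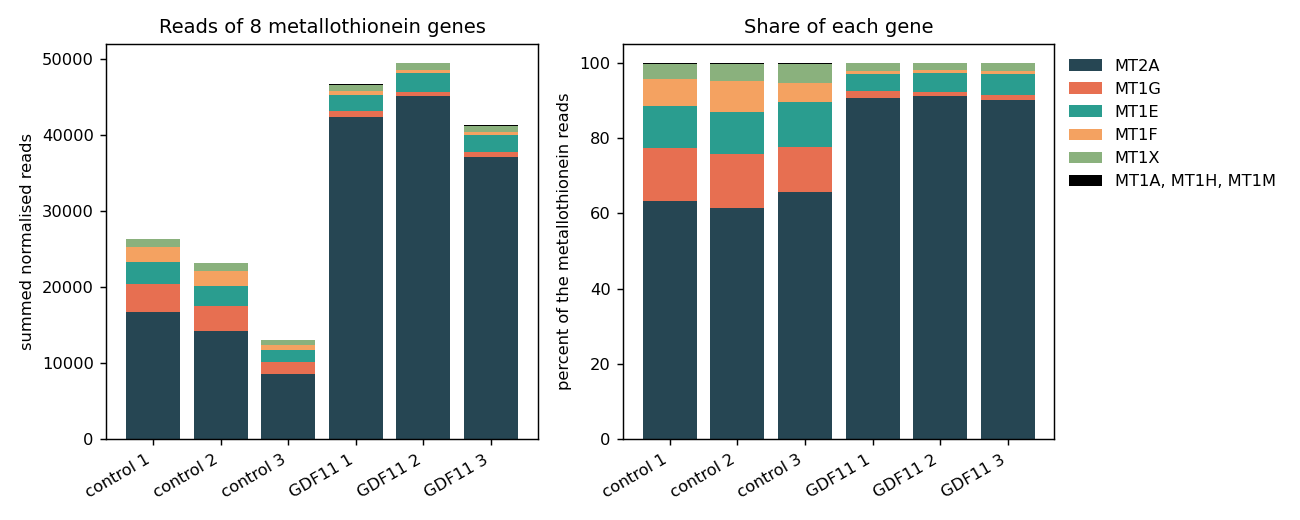
Left: normalised reads of the 8 metallothionein genes (vertical axis) stacked by gene for each library (horizontal axis); right: the same as percent of the metallothionein reads of that library. The sums are 13088 to 26377 in the controls and 41262 to 49493 with GDF11, and the share of MT2A is 61.5% to 65.6% in the controls and 90.1% to 91.1% with GDF11.

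Per kilobase of canonical transcript, the order of the isoforms was not the same with and without GDF11. In the controls MT2A stood first with a mean of 32854 reads per kilobase, followed by MT1G (6985), MT1F (3537), MT1E (3187), MT1X (2277), MT1A (102), MT1M (19.7) and MT1H (0). The ranges of MT1G and MT1F, of MT1F and MT1E and of MT1E and MT1X overlapped, and all 4 genes were lowest in control replicate 3. Within a library MT1G exceeded MT1F, and MT1E exceeded MT1X, in each of the 3 controls. MT1F exceeded MT1E in control replicates 1 and 2 but not in 3, so the order of this pair was not settled. With GDF11 the order was MT2A (103567), MT1E (3074), MT1X (2157), MT1G (1606), MT1F (976), MT1A (111), MT1M (8.93) and MT1H (1.62), and the ranges of the first 6 did not overlap. The canonical transcript of MT1E has 746 bases and those of the other isoforms 396 to 425. Before division by length MT1E had more reads than MT1F in each of the 3 controls (2950, 2625 and 1558 against 1920, 1924 and 666). The order of this pair therefore also depends on the transcript length used.

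Along chromosome 16 the metallothionein genes lie in 1 cluster, and it held genes called in opposite directions. MT1F and MT1G lie 49.4 and 58.2 kb from the start of MT2A, and MT1E, MT1A and MT1X, which were not called, 17.2, 30.1 and 73.9 kb from it. Of the 6 nearest protein-coding genes outside the cluster, 3 on each side, 1 was called, beside 22.4% of all tested genes called in either direction. The called neighbour was SLC12A3, the sodium chloride cotransporter gene, which fell by 1.92 ± 0.27 (limma adjusted p = 0.00144). NUDT21, OGFOD1 and BBS2 on the side of MT2A stood at -0.45, -0.053 and 0.26, and NUP93 and HERPUD1 on the other side at -0.51 and -0.22 (adjusted p from 0.0708 to 0.814).

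**Figure D3:**
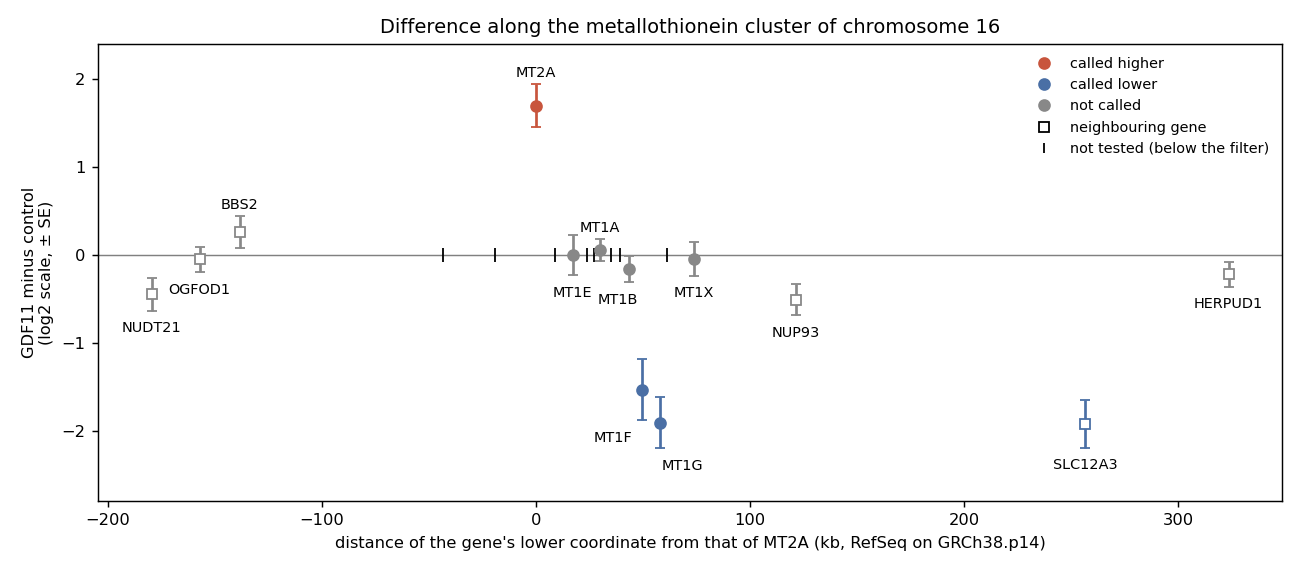
Log2 difference between GDF11 and control (vertical axis, ± SE) against the distance from MT2A on chromosome 16 (horizontal axis, kb), with metallothionein genes as circles, the nearest other protein-coding genes as squares and untested genes as ticks at 0. MT2A lies at 1.70, MT1F and MT1G at -1.53 and -1.91, and MT1E, MT1A, MT1B and MT1X near 0.

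SLC30A1, the gene of the zinc exporter ZnT1 at the plasma membrane, is a known MTF1 target outside the cluster (ENSG00000170385.10; chromosome 1, 211571568 to 211579161). Its values were 11.41, 11.05 and 11.75 in the controls and 11.97, 11.94 and 12.28 with GDF11. All GDF11 libraries were above the controls, though GDF11 replicate 2 exceeded control replicate 3 only slightly. Over all tested genes, groups lay apart in this direction for 20.9%. SLC30A1 rose by 0.66 ± 0.20 (SE, 3 against 3; limma adjusted p = 0.0452), 1.58 times the control in normalised reads. This call ended in 9 of 20 alternatives, among them without control replicate 1 (0.66, adjusted p = 0.121), control replicate 2 (0.49, 0.127), GDF11 replicate 1 (0.71, 0.102), GDF11 replicate 2 (0.72, 0.0856) or GDF11 replicate 3 (0.55, 0.164). The difference was 0.12 when RIN-adjusted (adjusted p = 0.762) and 0.83 when only control replicate 3 was left out (adjusted p = 0.00371).

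The promoter of SLC30A1 is shown beside those of the metallothioneins as that of the other gene that rose. Its 250 bases before the start, chr1:211579162-211579411 on the minus strand, held 1 match to the core of the metal response element, which 24.8% of all windows have.
SLC30A1: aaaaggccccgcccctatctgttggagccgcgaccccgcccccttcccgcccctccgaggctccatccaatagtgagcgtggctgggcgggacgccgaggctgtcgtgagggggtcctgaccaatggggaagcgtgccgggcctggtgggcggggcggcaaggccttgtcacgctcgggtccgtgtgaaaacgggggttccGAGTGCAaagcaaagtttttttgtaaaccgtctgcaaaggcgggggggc

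MTF1 itself (ENSG00000188786.10; chromosome 1, 37809574 to 37859592) varied more between replicates than between groups. Values were 8.31, 8.61 and 10.15 in the controls and 9.69, 9.70 and 8.94 with GDF11. Control replicate 3 was the highest of the 6 libraries, and the groups overlapped. The difference was 0.42 ± 0.44 (SE, limma adjusted p = 0.519). MTF1 was called higher without control replicate 3 (0.99, adjusted p = 0.0123) and with library weights (1.10, adjusted p = 0.00744), and RIN-adjusted it stood at -0.35 (adjusted p = 0.810). In its 250 promoter bases 0 matches to the metal response element core were found.

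**Figure D4:**
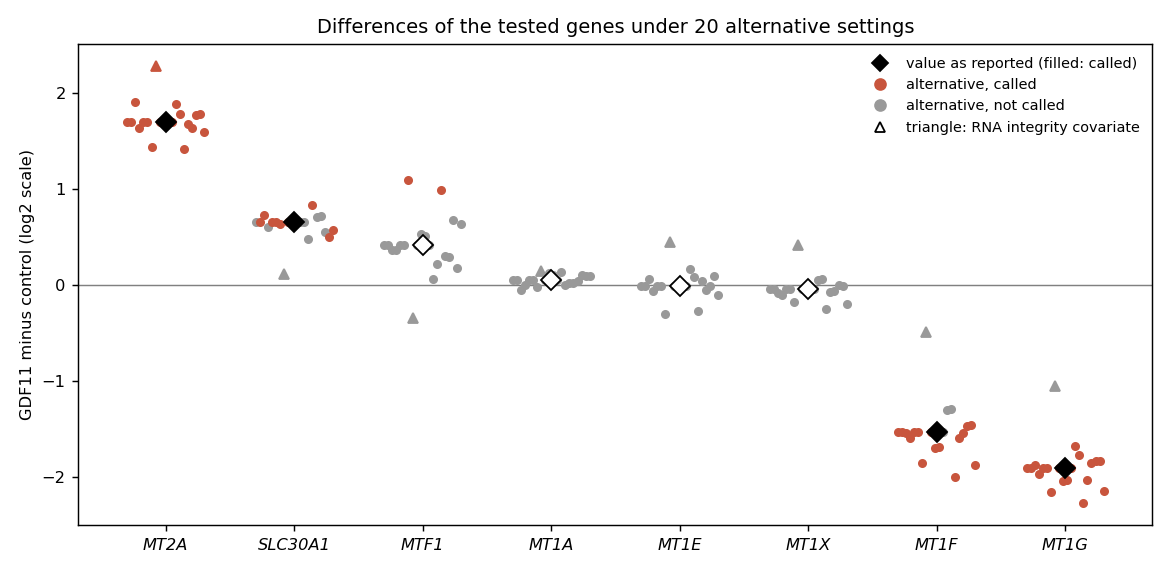
Log2 difference between GDF11 and control (vertical axis) of the 8 tested genes (horizontal axis) as reported (diamonds) and under 20 alternative settings (circles, with triangles for the RIN-adjusted fit). MT2A is called in all 20, MT1G in 19, MT1F in 16, SLC30A1 in 11 and MTF1 in 2.

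Zinc is moved out of the cytosol by SLC30A proteins and into it by SLC39A proteins. Among the other zinc exporter genes, 0 of 8 tested rose, 1 fell and 7 were not called (a median difference of 0.012), beside 11.7% higher and 10.8% lower among all tested genes. SLC30A3, which encodes a vesicular zinc transporter, fell from 9.01 ± 0.32 to 7.39 ± 0.22 (SD, n = 3 each; log2 difference -1.62 ± 0.20, limma adjusted p = 0.000624), and it stood at -1.07 RIN-adjusted (adjusted p = 0.0123). On a log2 scale of normalised reads plus 1 the SLC30A3 difference was larger, at -2.27. SLC30A7 (0.46 ± 0.18, adjusted p = 0.0976), SLC30A5 (0.15 ± 0.19, adjusted p = 0.607) and SLC30A9 (0.083 ± 0.19, adjusted p = 0.782) were not called. SLC30A7 was called higher in 3 of 20 alternatives, with the replicate block (adjusted p = 0.0395), with library weights (0.37, 0.0383) and without control replicate 3 (0.57, 0.0235).

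Among zinc importer genes, 1 of 12 tested rose, 1 fell and 10 were not called (a median difference of 0.067), beside 11.7% and 10.8% of all tested genes. SLC39A10, which zinc is known to repress through MTF1, had values of 10.37, 10.11 and 10.29 in the controls and 11.09, 10.73 and 11.29 with GDF11. It rose by 0.78 ± 0.18 (limma adjusted p = 0.0146), a call that ended without control replicate 2 (0.71, adjusted p = 0.0509), GDF11 replicate 1 (0.75, 0.0636) or GDF11 replicate 3 (0.65, 0.0665) and RIN-adjusted (0.61, 0.187). SLC39A5, a zinc importer gene of liver, pancreas and intestine, fell from 12.87 ± 0.47 to 11.55 ± 0.09 (SD, n = 3 each; -1.32 ± 0.23, adjusted p = 0.00399), and stood at -0.69 RIN-adjusted (adjusted p = 0.0833) and at -1.58 without control replicate 3 (adjusted p = 7.42e-05). SLC39A13 (0.48 ± 0.19, adjusted p = 0.0991) and SLC39A6 (0.42 ± 0.19, adjusted p = 0.141) were not called. SLC39A13 was called higher in 5 of 20 alternatives, among them RIN-adjusted (0.90, adjusted p = 0.0317) and with the replicate block (adjusted p = 0.0244). SLC39A6 was called higher in 4, among them without control replicate 3 (0.56, adjusted p = 0.0196) and with the replicate block (adjusted p = 0.0404). SLC39A14, an abundant importer of hepatocytes that also carries iron, was not called either (14.59 ± 0.40 against 14.30 ± 0.08, SD, n = 3 each; adjusted p = 0.342; chosen after its values were seen).

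Copper handling genes, whose metal metallothioneins also bind, included 2 of 12 that rose, 4 that fell and 6 that were not called (a median difference of -0.55), beside 11.7% higher and 10.8% lower among all tested genes. SLC31A1, the copper uptake transporter gene, fell by 0.75 ± 0.15 (limma adjusted p = 0.00721) and STEAP3, a metalloreductase gene, fell by 0.71 ± 0.14 (adjusted p = 0.00777). The copper export ATPase genes moved in opposite directions. ATP7A rose from 8.48 ± 0.25 to 9.38 ± 0.24 (SD, n = 3 each; adjusted p = 0.0105) and ATP7B, the ATPase of hepatocytes, fell from 12.25 ± 0.23 to 11.49 ± 0.09 (adjusted p = 0.0109). The call of ATP7B ended without GDF11 replicate 2 (-0.71, adjusted p = 0.0559), and RIN adjustment ended those of ATP7A (0.46, adjusted p = 0.250) and STEAP3 (-0.51, adjusted p = 0.0979). The remaining calls were CP, for the plasma copper protein ceruloplasmin, which fell by 0.64 ± 0.19 (adjusted p = 0.0372), and SLC31A2, which rose by 0.53 ± 0.15 (adjusted p = 0.0315); both were named after their values were seen.

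**Figure D5:**
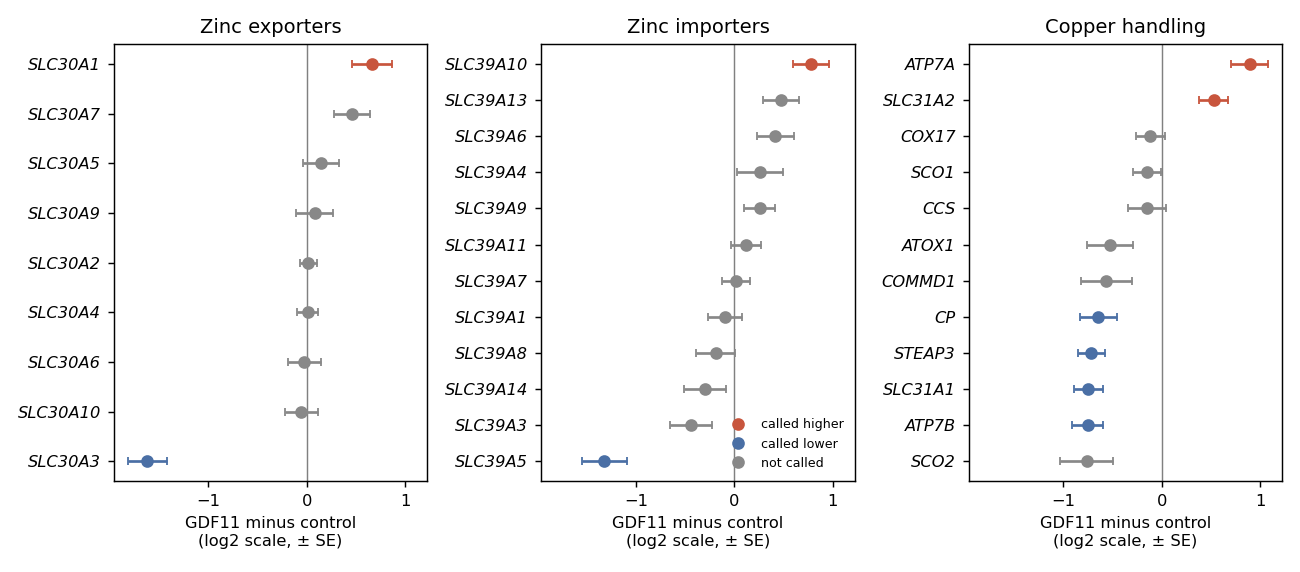
Log2 difference between GDF11 and control (horizontal axis, ± SE) of the tested zinc exporter genes with SLC30A1, zinc importer genes and copper handling genes (one row each), coloured by call. SLC30A3 and SLC39A5 lie lowest among the zinc transporters, at -1.62 and -1.32, and ATP7A and ATP7B lie on opposite sides of 0.

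Of the other genes that MTF1 is known to control, 2 of 8 rose, 1 fell and 5 were not called (a median difference of -0.25), where 22.4% of all tested genes were called in either direction. SLC40A1, the iron exporter ferroportin gene, rose by 0.91 ± 0.19 (limma adjusted p = 0.0105), a call that ended without GDF11 replicate 1 (0.80, adjusted p = 0.0536) and RIN-adjusted (0.65, adjusted p = 0.179). The other gene that rose was SLC39A10, and the 1 that fell was HAMP, for the iron hormone hepcidin, by 1.49 ± 0.17 (adjusted p = 0.000480). On a log2 scale of normalised reads plus 1 the HAMP difference was larger, at -1.98. TXNRD2, a mitochondrial thioredoxin reductase gene, was not called (-0.50 ± 0.16, adjusted p = 0.0511), yet it was called lower in 8 of 20 alternatives, among them without control replicate 3 (-0.63, adjusted p = 0.00347), with library weights (-0.58, 0.00157) and with the replicate block (adjusted p = 0.0195).

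Metal and heat stress genes, which metals such as cadmium are known to induce together with metallothioneins, included 1 of 14 that rose, 1 that fell and 12 that were not called (a median difference of -0.13), where 22.4% of all tested genes were called in either direction. HSPB1, a small heat shock protein gene, rose by 0.97 ± 0.23 (limma adjusted p = 0.0176), with its call ended without GDF11 replicate 1 (0.96, adjusted p = 0.0599) or GDF11 replicate 2 (0.86, adjusted p = 0.0678) and a RIN-adjusted value of 1.58. NQO1, an NRF2 target gene, fell by 0.91 ± 0.18 (adjusted p = 0.00694) and was not called RIN-adjusted (-0.63, adjusted p = 0.0957). HSPA1B (-0.42 ± 0.14, adjusted p = 0.0604) and SRXN1 (-0.28 ± 0.14, adjusted p = 0.170) were not called. HSPA1B was called lower in 7 of 20 alternatives, among them without control replicate 3 (-0.42, adjusted p = 0.0204) and with the replicate block (adjusted p = 0.0386), and SRXN1 in 1. HMOX1, the heme oxygenase gene, stood at 13.35 ± 0.30 and 13.06 ± 0.11 (SD, n = 3 each; adjusted p = 0.291; chosen after its values were seen).

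Genes known to respond to glucocorticoids, which also act on MT2A, included 4 of 12 tested that rose, 2 that fell and 6 that were not called (a median difference of 0.17), beside 11.7% higher and 10.8% lower among all tested genes. SGK1, a kinase gene that TGF-beta is also known to induce, had values of 9.57, 10.03 and 10.58 in the controls and 12.79, 12.78 and 12.87 with GDF11, and rose by 2.75 ± 0.24 (limma adjusted p = 9.65e-05). TSC22D3, which encodes the leucine zipper protein GILZ, rose from 6.89 ± 0.12 to 8.09 ± 0.12 (SD, n = 3 each; adjusted p = 0.000397), and by 2.06 on a log2 scale of reads plus 1, since its level is low. ERRFI1, an inhibitor of the EGF receptor, rose by 1.05 ± 0.19 (adjusted p = 0.00512) and DUSP1 rose by 0.73 ± 0.16 (adjusted p = 0.0119). CEBPD, a transcription factor gene, fell by 0.75 ± 0.15 (adjusted p = 0.00797) and PER1, a clock gene, fell by 0.80 ± 0.19 (adjusted p = 0.0176). RIN adjustment ended the calls of ERRFI1 (0.61, adjusted p = 0.0854) and CEBPD (-0.69, adjusted p = 0.0830). CEBPD stood at -0.43 without control replicate 3 once trends with GC content and length were taken out, and was still called in that setting. The 6 not called were NR3C1 (0.24), ANGPTL4 (0.27), KLF9 (0.10), TAT (-0.021), PCK1 (-0.46) and FKBP5 (-0.56). Their limma adjusted p ran from 0.0534 (FKBP5) to 0.944 (TAT). DUSP1, PER1 and the genes not called were named after their values were seen.

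The genes most like the metallothioneins as a group were sought by the Pearson correlation, over the 6 libraries, with the mean z-score of the 6 tested isoforms. The 5 highest outside the gene lists were ELAPOR1 (r = 0.995), FRMPD1 (0.993), SEMA4A (0.985), TRAPPC3 (0.983) and WDR83 (0.982), and none of these 5 was called by limma (adjusted p from 0.695 to 0.898), though ELAPOR1 was called lower without control replicate 3 after correction for GC content and length (-0.48, adjusted p = 0.0190). Since isoforms that rose and isoforms that fell enter this mean, opposite changes partly cancel in it. These correlations are descriptions over libraries in 2 groups and carry no test.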

How the data were processed

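Total RNA of 3 control and 3 GDF11-treated HepG2 cultures was sequenced, per the labels' protocols, from directional libraries as single reads of 75 bases. The authors deposited 1 table of variance-stabilised log2 values. The tools in the submitters' processing notes are Trimmomatic, DESeq2 and Salmon 1.2.1 with GRCh38, whereas the labels' protocols give STAR 2.6 with hg19, and the sources used here do not say which produced the values. Columns were matched to samples by the codes in the labels.

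Values were inverted along the variance-stabilising curve to normalised reads. Within 0.01, 71.5% to 73.7% of low values fell on whole reads, so no count test was run. Genes whose mean exceeded the table's minimum by 0.5 were compared between groups with limma 3.58.1 in R 4.3.3 (mean trend, two-sided, no covariate). P-values were adjusted by Benjamini-Hochberg over 18723 genes, at a threshold of 0.05. The procedure was tested on simulated data with independent noise in each gene and library. A shift shared by many genes of a library was not covered by it. Symbols matched 58349 of 60240 IDs. Positions and promoters are from RefSeq on GRCh38.p14, and transcript lengths from GENCODE v44 on GRCh37. The alternatives were other filters, scales, normalizations, variance priors and thresholds, library weights, RIN adjustment, a replicate block and leaving out each library in turn; correction for GC content and length was chosen after seeing the data. The genes, lists and rules were chosen with earlier results of these data known. Named were all 10 genes, up to 4 tested members of each further list with the lowest unadjusted p, and the 5 genes most like the isoforms. The motifs and chromosomal neighbours were added later.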

Additional observations from a re-analysis of the deposited data

How the results depend on the processing

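Over 20 alternative settings, MT2A kept its call in 20, MT1G in 19, MT1F in 16 and SLC30A1 in 11. The number of members higher was 1 with no filter on low values, 1 with median centring, 1 RIN-adjusted and 1 at an adjusted p under 0.01; the number lower was 0 RIN-adjusted and 1 at an adjusted p under 0.01. Leaving out single libraries gave 1 to 3 members higher and 1 to 2 lower. Over all genes, 1397 to 3647 were higher and 955 to 3993 lower when single libraries were left out. Higher and lower genes were 4473 and 4554 with library weights, 1149 and 721 RIN-adjusted, 1170 and 791 at an adjusted p under 0.01, and 3659 and 4482 with the correction for GC content and length and no control replicate 3; that correction with all libraries gave 2560 higher and 3079 lower. The causes were not tested. With median centring 1893 genes were higher and 2271 lower. The ratio of summed metallothionein reads was 1.85 to 2.53 without single libraries and 2.55 when scaled to library totals.

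The replicate block gave 3147 genes higher and 3306 lower and changed no call among the 8 tested members. Of the other named genes it added calls for SLC30A7 (adjusted p = 0.0395), SLC39A13 (0.0244), SLC39A6 (0.0404), TXNRD2 (0.0195) and HSPA1B (0.0386), by limma. Replicate numbers are not known to pair cultures: deviations of same-numbered libraries correlated at -0.0883, 0.375 and 0.478, and control replicate 1 correlated best with GDF11 replicate 2 (0.25).

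Signs changed only for genes that were not called. These were MT1A with quantile normalization (-0.050), median centring (-0.0031) and library weights (-0.015), MT1E with quantile normalization (0.068) and SLC30A9 with library weights (-0.039). RIN-adjusted they were MT1E (0.45), MT1X (0.42), MTF1 (-0.35), MT1B (0.21), SLC30A5 (-0.34), SLC30A9 (-0.28), SLC39A6 (-0.064), ELAPOR1 (0.27), FRMPD1 (0.20), SEMA4A (0.21), TRAPPC3 (0.30) and WDR83 (0.29). With the correction for GC content and length they were MT1E (0.095), SLC30A9 (-0.089, and -0.12 without control replicate 3) and WDR83 (0.036). Without single libraries the ranges were -0.27 to 0.17 (MT1E), -0.25 to 0.059 (MT1X), -0.016 to 0.31 (SLC30A5), -0.074 to 0.18 (SLC30A9), -0.17 to 0.069 (ELAPOR1), -0.14 to 0.042 (FRMPD1), -0.24 to 0.024 (SEMA4A), -0.32 to 0.019 (TRAPPC3) and -0.31 to 0.054 (WDR83).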

Other observations

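Profiles of single isoforms over the 6 libraries, compared after the values were seen, resembled different genes. The 5 genes with the highest Pearson correlation with MT2A were TIMP1, a metalloproteinase inhibitor gene (r = 0.999), UPP1 (0.998), TGFB1, for the ligand TGF-beta 1 (0.998), CRYAA (0.998) and PDLIM7 (0.998), with log2 differences of 1.61, 1.10, 1.94, 1.71 and 1.56. Those most like MT1G were FAM136A (0.998), AURKB, a mitotic kinase gene (0.998), LBHD2 (0.997), PTPMT1 (0.997) and ADAP1 (0.996), with differences of -0.52, -1.04, -1.44, -0.53 and -1.05. For MT1F they were TAS1R1 (0.999), MVD, a gene of cholesterol synthesis (0.999), MTFP1 (0.998), MRPL48 (0.998) and ACSS2, for an acetyl-CoA synthetase (0.996), with differences of -0.90, -0.83, -1.02, -1.13 and -1.25. Any gene that separates the groups and places control replicate 3 alike correlates in this way, so the values describe 6 libraries and carry no test.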
